A study of Mus musculus with 9 samples.

Results

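The constitutive proteasome genes were followed in the gastrocnemius, a calf muscle, of 9 mice of 6 genotypes, each mouse on 1 Affymetrix U74Av2 oligonucleotide array. Members were all probe sets whose single annotated symbol begins with Psma, Psmb, Psmc, Psmd or Psme, without Psmb8, Psmb9 and Psmb10, the catalytic subunits of the immunoproteasome. The rule, which uses no measured value, found 39 genes of the 8251 named on the array, with 50 of its 12422 probe sets that are not controls. Of the 50, 48 probe sets for 37 genes encode subunits, activators or, under Psmd symbols, assembly chaperones of the 19S base, and Psmc3ip and Psme3ip1 match by symbol without being subunits. A further 2 probe sets carry a proteasome symbol beside another and fall outside the rule.

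The groups were wild-type (n = 2, C57Bl/DBA2/129OLA-Ev, 7 weeks), hDMD (n = 1, 11 weeks), mdx (n = 2, 15 and 13 weeks), hDMD mdx (n = 2, 24 and 10 weeks), mdx utrn-/- (n = 1, 5 weeks) and hDMD mdx utrn-/- (n = 1, 9 weeks). The mdx allele is a mutation of Dmd that removes full-length dystrophin, hDMD stands for a full-length human gene for dystrophin carried by the mouse, and the utrn-/- allele removes utrophin, a relative of dystrophin. Strain is given for the wild-type mice alone, and 3 genotypes are known from a single mouse each. All mice were male except wild-type 1. The wild-type mice were the youngest apart from mdx utrn-/-, so age and genotype cannot be told apart in comparisons with them.

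The proteasome degrades proteins tagged with ubiquitin. Its 20S core is a barrel of outer alpha rings and inner beta rings, and the beta rings hold the proteolytic sites. The 19S regulatory particle caps the core: its ATPases unfold the substrate, and its non-ATPase subunits bind and remove ubiquitin. Other activators open the core without the 19S cap. In skeletal muscle, transcripts of many subunits are known to increase together in wasting, and dystrophin-deficient fibres undergo cycles of degeneration and repair.

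No proteasome member passed the test in any comparison of genotypes. Their spread over the 9 arrays had a smaller median than that of probe sets of like signal. The sole member whose arrays did not overlap between mice without and with dystrophin was Psme4, the activator PA200, which had lower values without dystrophin and did not pass the test. Of all probe sets tested, 1.42% were lower without overlap and 1.52% higher, so 1 of 43 members is close to the share over all.

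Values are intensities after quantile normalisation, as log2(value + 16), so that no value lies below 4, the floor. Levels are given with their SD and differences with their SE. Levels of different probe sets are not compared, since each has its own probes. On hybridisation spike-in controls, added in fixed amounts, wild-type 1, mdx 2 and hDMD mdx 1 were bright, with a geometric mean over 9 spike-in probe sets of 318 to 376 against 42.1 to 62.0 in the other 6 arrays, here called dim. The 3'/5' ratio of actin, a sign of RNA integrity and labelling, ranged from 1.20 to 1.87 on bright arrays and from 0.669 to 0.908 on dim ones. The fast fibre markers (11 of 11 on the array) were at 8.80 or above in every array. Bulk tissue was measured, so fewer cells of a type and less RNA per cell cannot be told apart.

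A probe set entered the tests if its mean over all 9 arrays was above the 40th percentile, a value of 4.46. Of the 50 members, 43 passed, for 36 genes. All 7 alpha probe sets passed, as did 10 of 12 beta, 8 of 9 ATPase, 14 of 16 non-ATPase and 3 of 4 activator probe sets, and Psme3ip1. The 7 below the threshold were Psmc3ip, at 4 in every array, Psmd10, an assembly chaperone of the 19S base, Psmd2, a scaffold subunit of the base, and further probe sets of Psmb1, Psmb4, Psmc5 and Psme1, whose genes each had another probe set above it. Just outside were Psmb1 (161923_at, mean 4.29) and Psmd2 (4.27), and just inside were Psmd11 (160304_r_at, 4.90), Psmc4 (4.93) and Psme3 (5.04). A fold change on this scale is understated for such low members.

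Promoter sequence was available for 31 of the 37 genes, in 33 windows of 300 bases from RefSeq (GRCm38.p6) that run from 250 bases before the start site to 50 after it. Psmb1, Psmb2, Psmb7, Psmc3, Psmd3 and Psmd7 had no entry. The factor Nfe2l1 is known to drive proteasome genes through antioxidant response elements, whose core was searched here as TGACNNNGC on both strands. It was found in 6 of the 33 windows (18.18%), those of Psmb5, Psmb6, Psmc6, Psmd12, Psmd9 and Psme4, against 12.39% of all 32851 windows. The GC box GGGCGG was found in 20 (60.61% against 35.66% of all windows), CCAAT in 12 (36.36% against 37.41%) and TATAAA in 3 (9.091% against 13.62%), each on both strands. Matches of different motifs can overlap, and a match is not evidence of a bound site.

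For Psmb5 and Psmb6, which encode catalytic subunits, and Psme4, the 120 bases from 100 before to 20 after the start site are shown. They are examples of windows with the core. Capitals mark the core, which on Psme4 lies on the opposite strand. The regions are chr14:54617976-54618095 on the minus strand, chr11:70525257-70525376 on the plus strand and chr11:30771675-30771794 on the plus strand.
Psmb5: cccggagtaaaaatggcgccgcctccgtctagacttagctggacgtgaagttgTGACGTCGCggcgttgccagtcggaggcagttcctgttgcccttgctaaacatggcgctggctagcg
Psmb6: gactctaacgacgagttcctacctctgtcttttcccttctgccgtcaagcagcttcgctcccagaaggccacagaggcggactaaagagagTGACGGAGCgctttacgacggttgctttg
Psme4: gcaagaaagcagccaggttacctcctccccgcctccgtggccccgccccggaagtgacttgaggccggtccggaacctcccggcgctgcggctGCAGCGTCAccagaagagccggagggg
The core began 47 bases before the start site in Psmb5, 9 before it in Psmb6 and 7 before it in Psme4.

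Across the 9 arrays most members stayed within a narrow band. The range of a member from its lowest to its highest array had a median of 0.82, and the SD over arrays a median of 0.27. For all 7453 probe sets tested, the corresponding medians were 1.25 and 0.42. Members are on average brighter than other probe sets, and among the 1236 probe sets whose mean lay between the members' quartiles (6.62 and 8.0) the medians were 1.18 and 0.39. The 21 members between those quartiles had medians of 0.77 for the range and 0.23 for the SD. A range under 1 was found for 25 of 43 members (58.1%) and for 29.7% of all probe sets tested. Between those quartiles it was found for 15 of 21 members (71.4%) and for 37.1% of the 1236 probe sets. These shares are descriptions, with no test. The smallest range was that of Psmb3, a beta subunit without a catalytic site, which lay between 8.03 and 8.35 in all 9 arrays.

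By role, the median range was 0.63 for the 7 alpha, 0.78 for the 10 beta, 0.74 for the 8 ATPase, 0.85 for the 14 non-ATPase and 0.93 for the 3 activator probe sets. The widest ranges belonged mostly to low members: Psmd11 (160304_r_at) spanned 2.98, Psmc4 2.73, Psmd12 2.37, Psme3 1.99 and Psmb4 (98556_at) 1.83. Of these, Psmd12 was the exception in level, with a mean of 6.24, and its lowest array, hDMD mdx utrn-/- at 4.80, stood below the other 8. Some members of higher signal also had a range above 1, among them Psmc6 (1.24, mean 8.0) and Psma3 (1.18, mean 8.53).

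**Figure D1:**
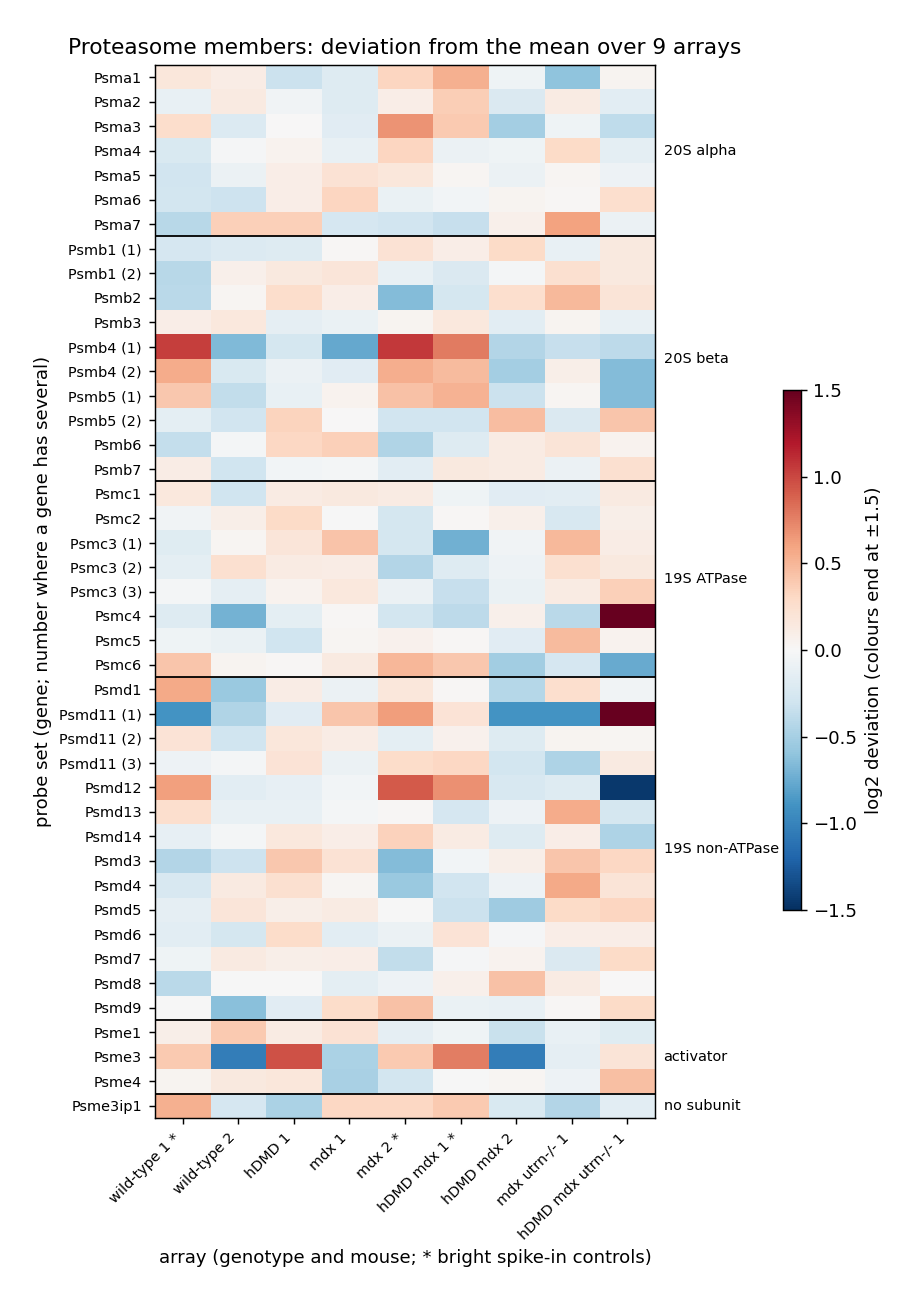
Deviation of each of the 43 tested proteasome probe sets (rows, grouped by role) from its own mean over the 9 arrays (columns), on the log2(value + 16) scale, with colours ending at 1.5. Most cells are pale, and the strongest colours belong to Psmc4, Psmd11 (160304_r_at) and Psmd12 in the hDMD mdx utrn-/- array and to Psmb4 (98556_at) and Psme3 in several arrays, where stars mark the bright ones.

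The median deviation of a role in each array sums up its members. For the 20S and 19S roles it lay between -0.23 and 0.17 in every array, and for the 3 activators between -0.47, in mdx 1, and 0.19, in hDMD mdx utrn-/-. Over all 43 members it lay between -0.10 and 0.09. In the same arrays the regenerating muscle markers (8 of 8 on the array) scored 0.99 to 1.18 without dystrophin and -0.83 to -0.29 with it. The macrophage markers (13 of 13) scored 0.38 to 1.13 and -0.54 to 0.81, with wild-type 2 highest among the carrying arrays. The adipocyte markers (6 of 8) scored -0.65 to 0.46 and -1.18 to 1.62, and the fast fibre markers -0.07 to 0.09 and -0.24 to 0.12. In some array, 5 macrophage and 2 regenerating markers were at the floor, and none was there in all arrays. The part of these cells in the members' values was not tested.

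**Figure D2:**
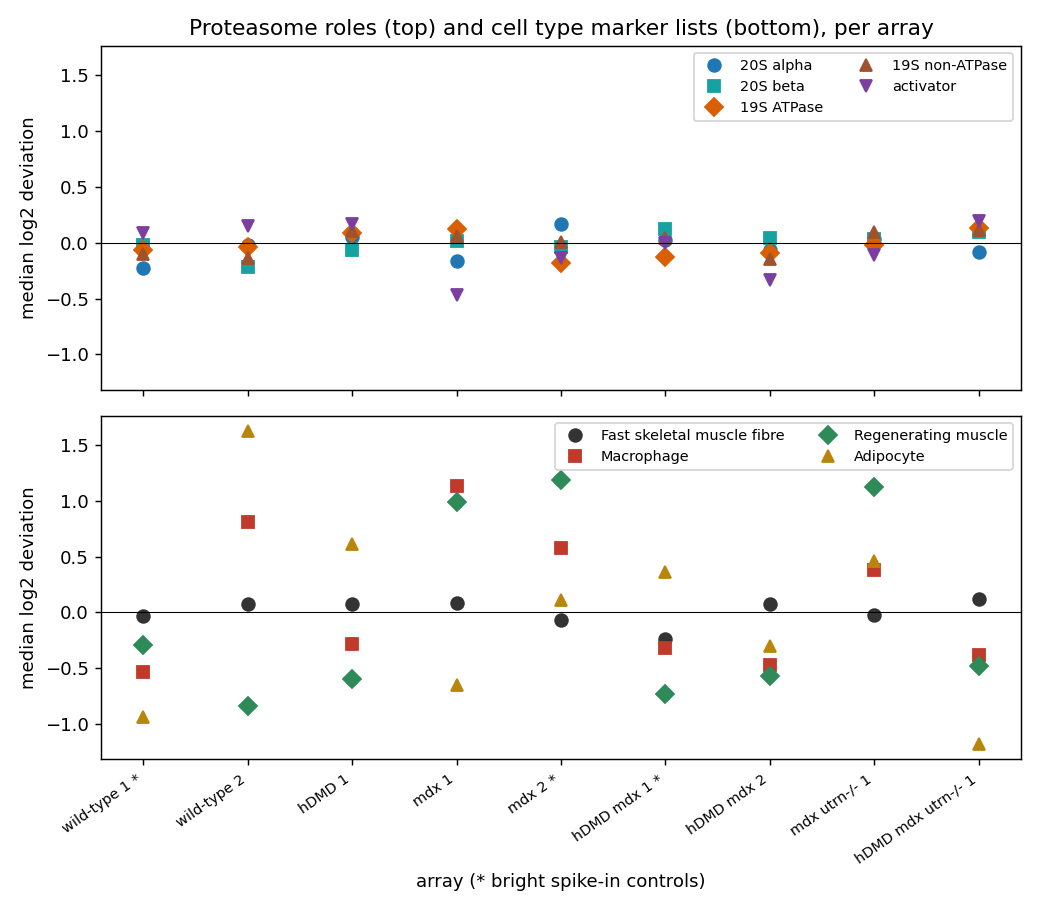
Median log2 deviation per array of the proteasome roles (top) and of 4 marker lists (bottom), drawn on the same vertical scale. The 20S and 19S roles stay between -0.23 and 0.17, whereas the regenerating muscle markers reach 0.99 to 1.18 in the 3 arrays without dystrophin.

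The first comparison asked whether the proteasome genes follow full-length dystrophin, mouse or human. The 3 mdx and mdx utrn-/- arrays, which lack it, were set against the 6 others, and 1 of the 3 and 2 of the 6 were bright. In limma, 0 of 43 members had an adjusted p under 0.05 and 0 had an unadjusted p under 0.05, where 9 of 7453 probe sets (0.121%) and 416 (5.58%) did. Of the members, 26 were higher and 17 lower without dystrophin, and their median difference was 0.05, beside -0.01 for all probe sets. On bright arrays alone that median was 0.02, and on dim arrays alone 0.10. Without normalisation 18 of 43 members were higher, with a median of -0.07, but the median of all probe sets was -0.12, and 26 of 43 members lay above that, against 28 of 43 above the median of all probe sets after quantile normalisation. The 95% interval of the difference lay within 1 on either side of 0 for 38 of 43 members (88.4%), against 65.5% of all probe sets. The other 5 were the low or variable Psmc4, Psmd11 (160304_r_at), Psmd12, Psmb4 (98556_at) and Psme3, whose intervals reached past 1 on one or both sides. With brightness as a block 0 members were called (0.148% of all probe sets), and Psme4 alone had an unadjusted p under 0.05 (9.37% of all).

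**Figure D3:**
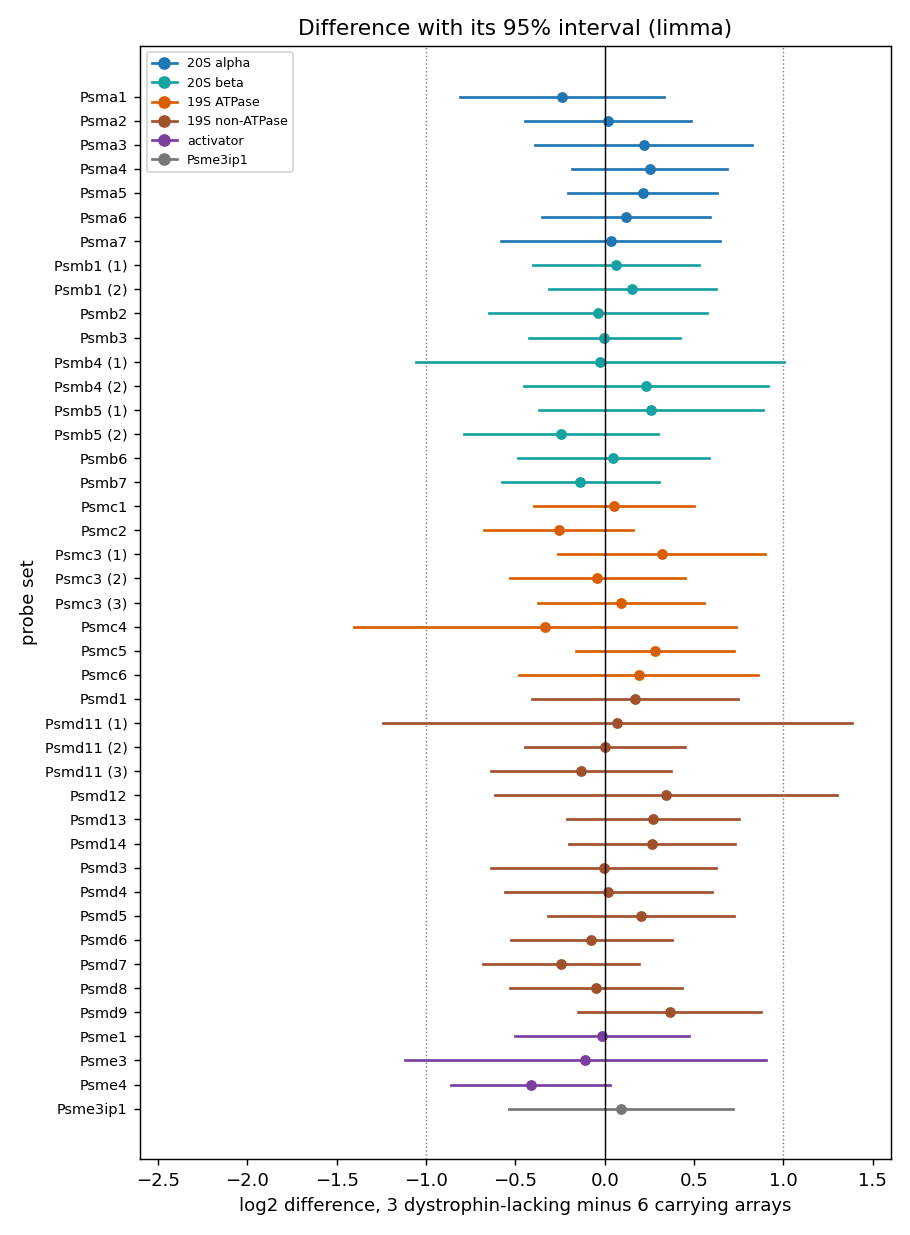
Difference of each tested proteasome probe set between the 3 arrays without and the 6 with dystrophin, on the log2(value + 16) scale, with its 95% limma interval, coloured by role. Every interval spans 0, and dotted lines mark a difference of 1 in each direction.

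The alpha ring subunits, which form the gate of the core, had a median difference of 0.12 in this comparison, with 6 of 7 higher without dystrophin. Psma4 was at 7.60 ± 0.24 (n = 3) against 7.35 ± 0.10 (n = 6). Its values were 7.20 and 7.41 in wild-type, 7.48 in hDMD, 7.32 and 7.76 in mdx, 7.34 and 7.37 in hDMD mdx, and 7.72 and 7.28 in the single mdx utrn-/- and hDMD mdx utrn-/- mice. The highest arrays were mdx 2 and mdx utrn-/-, but mdx 1 lay among the carrying arrays. The difference was 0.25 ± 0.20, with a 95% interval of -0.18 to 0.68.

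Psma5, another alpha subunit, was at 6.82 and 7.01 in wild-type, 7.20 in hDMD, 7.33 and 7.27 in mdx, 7.13 and 7.02 in hDMD mdx, and 7.14 and 7.02 in the single mdx utrn-/- and hDMD mdx utrn-/- mice. Both mdx arrays were above all others, and mdx utrn-/- lay below hDMD. The difference was 0.21 ± 0.19. Psma1 was at 5.47 and 5.41 in wild-type, 4.97 in hDMD, 5.11 and 5.62 in mdx, 5.83 and 5.23 in hDMD mdx, and 4.69 and 5.34 in the single mdx utrn-/- and hDMD mdx utrn-/- mice. Its difference had the other sign, -0.24 ± 0.26, with the groups overlapping, and was -0.01 without mdx utrn-/-, -0.15 without hDMD mdx 1 and -0.48 without mdx 2. Psma2, Psma3, Psma6 and Psma7 differed by 0.02 to 0.22.

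The beta ring had 5 of 10 probe sets higher and a median of 0.02. Its catalytic subunits are Psmb5, with chymotrypsin-like activity, Psmb6, with caspase-like activity, and Psmb7, with trypsin-like activity. Psmb6 (Entrez gene 19175) was at 7.55 and 7.88 in wild-type, 8.22 in hDMD, 8.28 and 7.47 in mdx, 7.73 and 8.04 in hDMD mdx, and 8.10 and 7.97 in the single mdx utrn-/- and hDMD mdx utrn-/- mice. The 3 bright arrays held its 3 lowest values, whatever the genotype. The difference was 0.05 ± 0.24, with an interval of -0.49 to 0.58.

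Psmb7 (94263_f_at, Entrez gene 19177) was at 8.91 and 8.50 in wild-type, 8.75 in hDMD, 8.77 and 8.64 in mdx, 8.94 and 8.91 in hDMD mdx, and 8.71 and 9.04 in the single mdx utrn-/- and hDMD mdx utrn-/- mice. The suffix f marks a probe set that can also read related transcripts. All 3 arrays with the human gene on a deficient background were above the 3 without it, and wild-type 1 lay as high as hDMD mdx 2. The difference by dystrophin was -0.14 ± 0.20.

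Psmb5 (Entrez gene 19173) has 2 probe sets, and they disagreed. The first (101558_s_at, whose suffix marks probes shared with other transcripts) was at 7.86 and 7.09 in wild-type, 7.35 in hDMD, 7.51 and 7.90 in mdx, 7.97 and 7.13 in hDMD mdx, and 7.48 and 6.81 in the single mdx utrn-/- and hDMD mdx utrn-/- mice. The second (160559_at) was at 5.58 and 5.43, 6.05, 5.73 and 5.43, 5.43 and 6.18, 5.50, and 6.13 in the same order. The array of hDMD mdx utrn-/- was the lowest on the first and the second highest on the second. Without dystrophin they differed by 0.26 ± 0.29 and -0.25 ± 0.25, so no direction can be given for this gene.

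**Figure D4:**
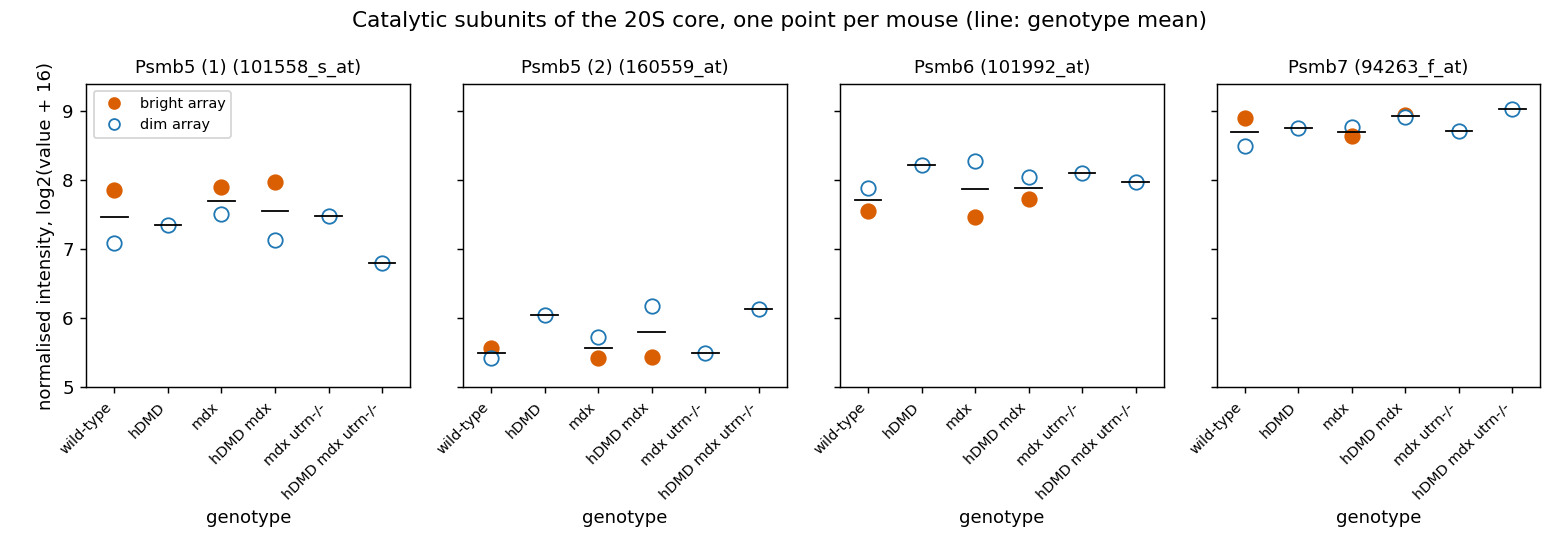
Normalised intensity, log2(value + 16), of the catalytic subunits Psmb5 (both probe sets), Psmb6 and Psmb7 by genotype, with 1 point per mouse and a line at the genotype mean. Filled points are the bright arrays, which hold the 3 highest values of the first Psmb5 probe set and the 3 lowest of Psmb6.

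Of the other beta subunits, Psmb1, Psmb2 and Psmb3 differed by -0.04 to 0.16. Psmb4 (98557_f_at) was at 8.70 and 7.91 in wild-type, 8.05 in hDMD, 7.97 and 8.69 in mdx, 8.61 and 7.63 in hDMD mdx, and 8.22 and 7.49 in the single mdx utrn-/- and hDMD mdx utrn-/- mice. Its 3 highest arrays were the bright ones. The difference by dystrophin was 0.23 ± 0.31, and the other Psmb4 probe set tested (98556_at) differed by -0.03 ± 0.47.

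The 19S ATPases, which form a ring against the core, had 5 of 8 probe sets higher and a median of 0.07. Psmc5 (160534_at) was at 7.93 and 7.89 in wild-type, 7.69 in hDMD, 8.02 and 8.06 in mdx, 8.02 and 7.83 in hDMD mdx, and 8.47 and 8.05 in the single mdx utrn-/- and hDMD mdx utrn-/- mice. The mdx utrn-/- array stood highest, and hDMD mdx utrn-/- lay between both mdx arrays. The difference was 0.28 ± 0.20, with 0.08 on bright and 0.38 on dim arrays.

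Psmc3 (100225_f_at) was at 6.46 and 6.67 in wild-type, 6.83 in hDMD, 7.07 and 6.38 in mdx, 5.92 and 6.59 in hDMD mdx, and 7.12 and 6.76 in the single mdx utrn-/- and hDMD mdx utrn-/- mice. Bright arrays held its 3 lowest values. It differed by 0.32 ± 0.27, and the other Psmc3 probe sets by -0.04 ± 0.22 and 0.09 ± 0.21. The f suffix marks probe sets that can also read related transcripts.

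Psmc2 was the ATPase lowest without dystrophin relative to its spread. It was at 7.58 and 7.73 in wild-type, 7.93 in hDMD, 7.63 and 7.37 in mdx, 7.66 and 7.72 in hDMD mdx, and 7.40 and 7.73 in the single mdx utrn-/- and hDMD mdx utrn-/- mice. The lowest arrays were mdx 2 and mdx utrn-/-, and mdx 1 lay above wild-type 1. The difference was -0.26 ± 0.19.

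Psmc4 was low in most arrays, at 4.74 and 4.23 in wild-type, 4.78 in hDMD, 4.95 and 4.66 in mdx, 4.55 and 5.01 in hDMD mdx and 4.53 in mdx utrn-/-. The hDMD mdx utrn-/- array alone was high, at 6.96. The difference by dystrophin was -0.33 ± 0.49.

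The 19S non-ATPases include the scaffold and the ubiquitin-handling subunits, and the assembly chaperones Psmd5, Psmd9 and Psmd10 are counted with them by symbol. Of their 14 probe sets 9 were higher, with a median of 0.05. Psmd9, an assembly chaperone of the base, was at 6.55 and 5.92 in wild-type, 6.38 in hDMD, 6.82 and 6.99 in mdx, 6.45 and 6.44 in hDMD mdx, and 6.57 and 6.84 in the single mdx utrn-/- and hDMD mdx utrn-/- mice. Only hDMD mdx utrn-/- among the carrying arrays reached the range of the 3 arrays without dystrophin. The difference was 0.36 ± 0.23, the highest of any member, with an interval of -0.15 to 0.88. The Psmd9 probe set is 97929_r_at, where the suffix r marks design under relaxed rules.

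Psmd14, the deubiquitinase that removes ubiquitin chains from substrates, was at 6.47 and 6.56 in wild-type, 6.76 in hDMD, 6.69 and 6.94 in mdx, 6.72 and 6.41 in hDMD mdx, and 6.69 and 6.14 in the single mdx utrn-/- and hDMD mdx utrn-/- mice. Its difference was 0.27 ± 0.21. Psmd13, a lid subunit, was at 7.37 and 7.01 in wild-type, 7.01 in hDMD, 7.08 and 7.13 in mdx, 6.86 and 7.04 in hDMD mdx, and 7.67 and 6.85 in the single mdx utrn-/- and hDMD mdx utrn-/- mice. The mdx utrn-/- array was the highest and wild-type 1 the next. Psmd13 differed by 0.27 ± 0.22, with 0.02 on bright and 0.40 on dim arrays. The ubiquitin receptor Psmd4 differed by 0.02 ± 0.27. The assembly chaperone Psmd5 differed by 0.20 ± 0.24, and Psmd7, the partner of Psmd14 in the lid, by -0.24 ± 0.20.

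Of the activators, 0 of 3 tested probe sets had a higher mean without dystrophin, but the signs of Psme1 and Psme3 turned under other settings. Psme4 (Entrez gene 103554) was at 7.89 and 8.0 in wild-type, 8.02 in hDMD, 7.37 and 7.58 in mdx, 7.85 and 7.88 in hDMD mdx, and 7.78 and 8.30 in the single mdx utrn-/- and hDMD mdx utrn-/- mice. The 3 arrays without dystrophin did not overlap with the 6 with it, although mdx utrn-/- lay close below hDMD mdx 1. Psme4 was the sole member without overlap, beside 1.42% of all probe sets in that direction and 1.52% in the other. The means were 7.58 ± 0.20 (n = 3) and 7.99 ± 0.17 (n = 6), and the difference was -0.41 ± 0.20, with an interval of -0.86 to 0.03. The limma p was 0.0652, adjusted to 0.952 over all probe sets. On bright arrays the difference was -0.29 and on dim arrays -0.48. With brightness as a block the limma p was 0.0400, adjusted to 0.498.

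Psme1 encodes the alpha subunit of PA28, an activator induced by interferon. It was at 6.92 and 7.23 in wild-type, 6.96 in hDMD, 7.05 and 6.69 in mdx, 6.77 and 6.5 in hDMD mdx, and 6.72 and 6.65 in the single mdx utrn-/- and hDMD mdx utrn-/- mice, a difference of -0.02 ± 0.22 that was 0.05 in the dim arrays. Psme3, the nuclear PA28 gamma, was at 5.43 and 4 in wild-type, 5.99 in hDMD, 4.57 and 5.44 in mdx, 5.81 and 4 in hDMD mdx, and 4.90 and 5.23 in the single mdx utrn-/- and hDMD mdx utrn-/- mice. It differed by -0.11 ± 0.46, and this sign turned to 0.57 with a pseudocount of 1.

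In mdx against wild-type, 0 of 43 members were called in limma, as was 0 of all probe sets (0%). The unadjusted p was under 0.05 for 1 member and for 1.74% of all probe sets. Members were higher in mdx for 29 of 43, with a median of 0.09 beside 0.00 for all probe sets. With brightness as a block 0 were called (0%) and Psmd11 (160304_r_at) and Psmd9 had an unadjusted p under 0.05 (5.73% of all). The intervals were wide: 15 of 43 members had one within 1 of 0, against 20.6% of all. The arrays did not overlap for 7 members higher in mdx (11.2% of all probe sets) and 2 lower (10.7%).

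The member with the small p was Psmd11 (160304_r_at), a lid subunit. It was at 4 and 4.44 in wild-type, 4.73 in hDMD, 5.32 and 5.52 in mdx, 5.11 and 4 in hDMD mdx, and 4 and 6.98 in the single mdx utrn-/- and hDMD mdx utrn-/- mice. The mdx arrays were above both wild-type arrays, but the other dystrophin-lacking array, mdx utrn-/-, was at the floor. The difference was 1.20 ± 0.45, with a limma p of 0.0323, adjusted to 1. Wild-type 1, at 4.0034, was just above the floor, and hDMD mdx 2 was at the floor. The size moved with the setting. It was 3.39 with a pseudocount of 1, 0.44 with a pseudocount of 64 and 0.73 with 75th percentile scaling. With age as a covariate it was 0.67, but that term rests mostly on the bright and the dim hDMD mdx array. The other Psmd11 probe sets, with higher signals, differed by 0.03 ± 0.35 and 0.15 ± 0.36. The suffix r marks a probe set designed under relaxed rules.

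The other 6 members higher in mdx without overlap were Psmd9 (0.67 ± 0.36), Psma6 (0.40 ± 0.33), Psma5 (0.39 ± 0.32), Psmb1 (160875_at, 0.34 ± 0.32), Psmd14 (0.30 ± 0.33) and Psmc5 (0.13 ± 0.32). Psma6 was at 8.39 and 8.36 in wild-type, 8.77 in hDMD, 8.99 and 8.57 in mdx, 8.63 and 8.71 in hDMD mdx, and 8.68 and 8.92 in the single mdx utrn-/- and hDMD mdx utrn-/- mice. Both wild-type arrays were below all 7 others. Psmb1 (160875_at) was likewise lowest in wild-type, at 7.74 and 7.79, with hDMD at 7.80, mdx at 8.01 and 8.21, hDMD mdx at 8.09 and 8.27, mdx utrn-/- at 7.88 and hDMD mdx utrn-/- at 8.13. The other Psmb1 probe set tested (98113_at) did not show this. It differed by 0.20 ± 0.35 with overlap, and its wild-type 2 array, at 8.24, was above mdx 2, at 8.05. The wild-type mice were 7 weeks old. With age as a covariate the members' median over genes was -0.05 in place of 0.10. In that fit the age term rests on mdx (15 and 13 weeks) and mostly on hDMD mdx (24 and 10 weeks). The 24-week hDMD mdx array is bright and the 10-week array dim. The fit can thus hardly tell age from brightness, and no conclusion about age is drawn. The 2 members lower without overlap were Psme4 (-0.47 ± 0.32) and Psmb3 (-0.16 ± 0.32).

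In hDMD mdx against mdx, which shares the mdx arrays with the comparison above, 0 of 43 members were called in limma (0% of all probe sets) and 0 had an unadjusted p under 0.05 (2.88%). Members were higher in hDMD mdx for 18 and lower for 25, with a median of -0.10 beside 0.02 for all. On bright arrays that median was 0.01, and on dim arrays -0.20. Without normalisation all 43 members were higher in hDMD mdx, with a median of 0.48, but so was the median of all probe sets, at 0.51, and 19 of 43 members lay above it. With brightness as a block 0 were called (0%) and 0 had an unadjusted p under 0.05 (7.29%). The arrays did not overlap for 5 members higher (13.9% of all probe sets) and 8 lower (13.1%). The largest difference was that of Psmd11 (160304_r_at), -0.87 ± 0.45 (limma p 0.0955), with hDMD mdx 2 at the floor. The other Psmd11 probe sets differed by -0.04 ± 0.35 and -0.08 ± 0.36. Psmd5 differed by -0.49 ± 0.33, Psmc3 (100225_f_at) by -0.47 ± 0.41, Psmd9 by -0.46 ± 0.36, Psmd8 by 0.37 ± 0.34 and Psme4 by 0.39 ± 0.32.

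Adding the utrophin-deficient pair, the human gene was tested on deficient backgrounds with 3 arrays against 3 and utrophin genotype as a term. In limma 0 of 43 members were called (0% of all probe sets) and 0 had an unadjusted p under 0.05 (5.49%). With brightness as a block 0 members were called (0.0537%) and 0 had an unadjusted p under 0.05 (10.4%). Members were higher with the human gene for 16 and lower for 27, with a median of -0.04 beside 0.02 for all, and 29 of 43 had an interval within 1 of 0 (44.2% of all). Without normalisation 30 of 43 were higher, with a median of 0.12 beside 0.25 for all, and 14 of 43 lay above the latter. The same arrays without dystrophin enter this and the first comparison.

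The 3 arrays with the human gene were above the 3 without it for Psmc2, Psmb7 and Psme4 (5.23% of all probe sets) and below them for Psmd13 and Psma5 (5.30%). Psme4 differed by 0.43 ± 0.26, Psmb7 by 0.26 ± 0.26, Psmc2 by 0.24 ± 0.26, Psmd13 by -0.38 ± 0.28 and Psma5 by -0.19 ± 0.26. Psmc4 had the widest difference, 0.80 ± 0.51, which rests on the 6.96 of hDMD mdx utrn-/- and was -0.02 when either utrn-/- array was left out. Psmd12 (93971_f_at), a lid subunit, differed by -0.56 ± 0.42. Leaving out either utrn-/- array gave -0.22, leaving out mdx 1 gave -0.94 and leaving out hDMD mdx 1 gave -0.93. It was at 6.86 and 6.08 in wild-type, 6.12 in hDMD, 6.20 and 7.17 in mdx, 6.93 and 6.0 in hDMD mdx, and 6.05 and 4.80 in the single mdx utrn-/- and hDMD mdx utrn-/- mice.

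Between the single hDMD mdx utrn-/- and mdx utrn-/- mice there was no replicate and no test. The members' median difference was -0.10, and 3 of 43 (6.98%) were past 1 in either direction, against 18.3% of all probe sets. They were Psmd11 (160304_r_at) at 2.98, Psmc4 at 2.43 and Psmd12 at -1.25. Over all 6 genotypes, limma's moderated F called 0 of 43 members (0% of all probe sets). The unadjusted p was under 0.05 for Psmc4 (0.0124) and Psmd11 (160304_r_at, 0.0129), with an adjusted p of 1.0 for both, against 2.95% of all probe sets. With brightness as a block 0 were called (0%) and 4 had an unadjusted p under 0.05 (11.2%).

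Some members differed with the brightness of the array within genotypes. In a fit of genotype and brightness, added after the values were seen, 4 of 43 members passed in limma (9.30%), against 13% of all probe sets, and all 4 were higher in the bright arrays. Psmb4 (98556_at) was at 6.29, 6.32 and 6.03 in the bright arrays of wild-type, mdx and hDMD mdx and at 4.59, 4.48 and 4.81 in their dim arrays. The genotypes with a dim array alone were at 4.99 (hDMD), 4.91 (mdx utrn-/-) and 4.86 (hDMD mdx utrn-/-). It was higher by 1.58 ± 0.22, with a limma adjusted p of 0.0162, and Psmb4 (98557_f_at) by 0.83 ± 0.19, with a limma adjusted p of 0.0437. Psme3 was higher by 1.37 ± 0.24 (limma adjusted p 0.0252), with the bright arrays of wild-type, mdx and hDMD mdx at 5.43, 5.44 and 5.81 and their dim arrays at 4, 4.57 and 4. Over all arrays bright and dim overlapped for Psme3, since the dim hDMD array was at 5.99, above every bright one, and mdx utrn-/- and hDMD mdx utrn-/- were at 4.90 and 5.23. Psmd12 (93971_f_at), whose suffix f marks a probe set that can also read related transcripts, was higher by 0.89 ± 0.19 (limma adjusted p 0.0361). Each of the 4 was higher in the bright array in 3 of 3 genotypes, but the fit rests on these same pairs, so this adds no support. The direction was the same in all 3 genotypes for 51.2% of members and 55.5% of all probe sets. An unadjusted p under 0.05 was found for 10 members and for 33.4% of all probe sets. Wild-type 1 is also the female mouse, and sex and brightness cannot be told apart within wild-type.

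**Figure D5:**
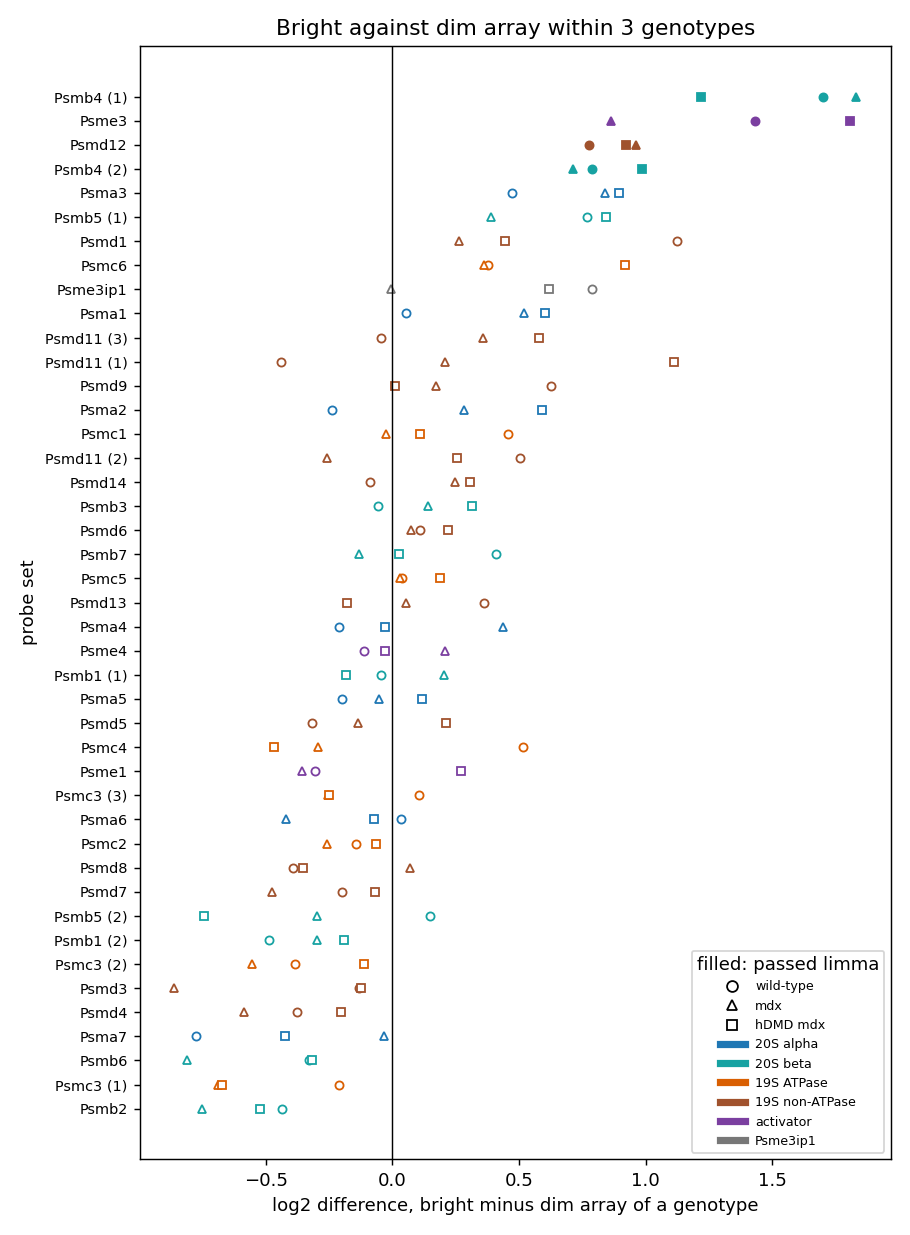
Log2 difference between the bright and the dim array within wild-type, mdx and hDMD mdx for each tested proteasome probe set, ordered by the fitted difference and coloured by role. Filled symbols are the 4 probe sets that passed in limma, 2 of Psmb4, Psme3 and Psmd12.

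The other genes of the pathway came from 10 lists with 110 genes, of which 74 were on the array and 73 were tested. In limma 0 of the 73 were called in any of the 4 comparisons, with 5 at an unadjusted p under 0.05 by dystrophin (5.58% of all probe sets), 1 in mdx against wild-type (1.74%), 0 in hDMD mdx against mdx (2.88%) and 4 for the human gene (5.49%). Of them, 35 of 73 were higher without dystrophin. The list of immunoproteasome and interferon-linked genes had 5 tested: the immunoproteasome subunits Psmb8, Psmb9 and Psmb10, and also Tap1 and Tapbp, which are not subunits. All 5 were higher without dystrophin, with a median of 0.45. All 5 were lower with the human gene on deficient backgrounds, with a median of -0.48, but both comparisons use the same 3 arrays without dystrophin. In mdx against wild-type 4 of 5 were higher, with a median of 0.19. On the dim arrays of that comparison all 5 were lower, by -0.72 to -0.14. On its bright arrays all 5 were higher, by 0.03 to 1.15, with 1 array per genotype in either case. In hDMD mdx against mdx all 5 were lower, with a median of -0.55. Psmb8, the inducible counterpart of Psmb5, differed by 0.73 ± 0.32 without dystrophin (limma p 0.0444, adjusted 0.875). It was at 5.34 and 6.70 in wild-type, 5.19 in hDMD, 6.56 and 6.07 in mdx, 5.68 and 5.31 in hDMD mdx, and 6.43 and 5.53 in the single mdx utrn-/- and hDMD mdx utrn-/- mice. Wild-type 2, the array highest in macrophage markers among the carrying arrays, was the highest of all. Psmb10, the inducible counterpart of Psmb7, differed by 0.95 ± 0.48. Its hDMD and hDMD mdx utrn-/- arrays were at the floor of 4, and wild-type 2 was the highest of all, at 6.43. In mdx against wild-type Psmb10 differed by 0.04 ± 0.44. The part of macrophages in these values was not tested.

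Of the ubiquitin conjugating enzymes, 3 of 16 were higher without dystrophin, with a median of -0.23. Ube2b was at 8.96 and 8.26 in wild-type, 8.60 in hDMD, 7.77 and 7.92 in mdx, 8.75 and 8.59 in hDMD mdx, and 7.07 and 8.32 in the single mdx utrn-/- and hDMD mdx utrn-/- mice. The arrays did not overlap (1.42% of all probe sets in that direction), and the difference was -1.0 ± 0.25 (limma p 0.00211, adjusted 0.383). Ube2d3 differed by -0.73 ± 0.30.

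Among the assembly factors and inhibitors, 2 of 6 were higher, and Psmg4, a chaperone of the alpha ring, differed by 0.68 ± 0.29. Of the transcription factors known to act on proteasome genes, 5 of 7 were higher, with a median of 0.04. Nfe2l1 differed by -0.26 ± 0.21 and Nfe2l2 by 0.21 ± 0.36. Of the calpains and calpastatin, a separate protease system, 4 of 7 were higher, and Capn3, the muscle-specific calpain, differed by -0.55 ± 0.21 (limma adjusted p 0.802). The muscle ubiquitin ligases had 6 of 10 higher, the deubiquitinases 4 of 11, the shuttle factors 2 of 6 and the proteasome-bound proteins outside the symbol rule 3 of 4, with medians of 0.02, -0.02, -0.10 and 0.16.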

How the data were processed

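The authors deposited linear intensities per probe set, with 19.4% to 29.9% of them at or below 0 per array. No expression measure, software or scaling is given in the labels, so the scale of each array is unknown. Intensities were quantile normalised over 9 arrays, set to at least 0, and log2 was taken after adding 16. Symbols came from the platform annotation, updated through GRCm38.p6 (10833 probe sets with 1 symbol, 396 with several, 1193 unnamed). Tests used lmFit and eBayes (limma 3.58.1, R 4.3.3), were two-sided, and were adjusted by Benjamini-Hochberg over 7453 probe sets, with a threshold of 0.05. Dystrophin classes left 7 residual degrees of freedom and genotype means 3, so the fit lends the spread of genotypes with 2 mice to those with 1. The code was tested on simulated data. Each array is 1 mouse per the labels, and 9 arrays limit the precision. The members and lists were chosen with earlier results of these data known. Values in every array are given for the catalytic subunits, members that passed, per role the 3 smallest p values by dystrophin and the smallest in mdx against wild-type and for the human gene, and genes whose probe sets disagree. From each other list the 2 smallest p values by dystrophin could be named. Tested genes of the immunoproteasome and interferon-linked list were all named to state its content. Alternatives were other scalings, pseudocounts and filters, eBayes with a trend, brightness, age or human gene terms, dim arrays, compared arrays, other probe sets and each mouse left out. The brightness test and bright-only medians were added after the data were seen.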

Additional observations from a re-analysis of the deposited data

Results flagged for a closer look

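Among the 6 arrays with dystrophin, a single array stood apart from the other 5 by Dixon's ratio for 4 of 43 members (9.30%), against 5.57% of all probe sets tested, and chance alone flags about 1 in 20 groups. Psmc4 was at 6.96 in hDMD mdx utrn-/-, against 4.23 to 5.01 in the others. Psmd11 (160304_r_at) was at 6.98 in the same array, against 4 to 5.11. Psme4 was at 8.30 there, against 7.85 to 8.02. That array had the lowest deposited median intensity, 1.47, and its genotype has no other mouse. Psmd13 was at 7.37 in wild-type 1, the bright array of the female mouse, against 6.85 to 7.04.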

How the results depend on the processing

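The count of called members was 0 under all 95 alternatives run in limma over the 5 comparisons. Medians over member genes moved by more than their SD between mice, 0.0459, in 20 of 83 alternatives. By dystrophin, the median of 0.05 became -0.059 as deposited, 0.13 in the dim arrays and 0.11 with the human gene as a covariate. In mdx against wild-type, 0.10 became 0.050 with 75th percentile scaling, 0.021 in the bright arrays and -0.051 with age as a covariate. That age term mostly contrasts the bright with the dim hDMD mdx array. In hDMD mdx against mdx, -0.11 became 0.47 as deposited, -0.20 in the dim and 0.049 in the bright arrays. For the human gene on deficient backgrounds, -0.066 became 0.065 as deposited, -0.14 with 75th percentile scaling, -0.14 in the dim and 0.049 in the bright arrays. With each mouse left out in turn, these medians were 0.041 to 0.094, 0.0088 to 0.14, -0.15 to 0.045 and -0.13 to -0.056. Of 470 values of named members under alternatives, 16 reversed, none of them called. By dystrophin, Psme3 was at 0.57 with a pseudocount of 1, 0.25 with the human gene as a covariate and -0.34 to 0.091 with each mouse left out, and Psme1 at 0.052 in the dim arrays and -0.13 to 0.062. With that covariate Psmb4 (98557_f_at) was at -0.0097 and Psmb5 (160559_at) at 0.052. For the human gene, Psmd12 was at 0.067 as deposited and Psmc4 at -0.023 to 1.16 with each mouse left out. The cause was not tested. No tests were run in the dim arrays alone for the comparisons of mdx with wild-type and with hDMD mdx, which leave no residual degrees of freedom. No paired analysis was possible because the labels give no replicate numbers. The number of arrays, and values near the floor for low members, limit what could be detected.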
